A study of Homo sapiens with 12 samples.

Results

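The 10 amino acid transporter genes described here were followed in HepG2 cells through 240 min of insulin. They are SLC7A5, SLC3A2 and SLC43A1 of leucine uptake, SLC1A5 and SLC1A4 of neutral amino acid exchange, SLC38A1, SLC38A2 and SLC38A3 of sodium-coupled glutamine and alanine uptake, and SLC7A1 and SLC7A2 of arginine and lysine uptake. They were chosen by name, and all 10 of the 10 were rows of the deposited table of 26364 genes. All 10 passed the filter on low counts and were among the 13852 genes tested. Per library, the fewest reads on any of the 10 was 1411 (SLC43A1) and the most was 81936 (SLC38A2).

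HepG2 is a human line from a liver tumor. RNA was sequenced at 0, 5, 10, 30 and 240 min of insulin, with 2 replicate libraries per time, 10 in all. For every RNA library, 0 min included, the labels give growth in EMEM, a basal culture medium, with fetal bovine serum, then 16 h in EMEM, then 3 nM insulin in EMEM with BSA. In addition there was 1 ChIP-seq library for the insulin receptor (IR), with an input library that was not used here. The 0 min libraries were the only controls, and none of the libraries used here was kept for 240 min without insulin. Insulin, elapsed time and the EMEM with BSA in which the insulin was given cannot therefore be told apart at 240 min. The study's methods describe the RNA-seq as a single experiment on biologically independent samples, so the p-values measure the spread between samples of 1 experiment. The protocol fields appear exchanged between the assays: those of the RNA libraries name a DNA extraction and 1 stimulation time of 5 min for all, and those of the ChIP libraries name an RNA kit. The times used here come from the sample titles, and the 16 h in EMEM and the 3 nM dose carry the same doubt, although both sets of fields give 3 nM insulin.

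Between 18347109 and 45005769 reads per library fell on genes. The line carried hepatocyte transcripts (8 of 8 markers, summing to 66418 to 82312 CPM, counts scaled to library size), and the leukocyte marker PTPRC was at 0 in all 10 libraries. The fibroblast gene DCN and the T cell gene CD3E were at or below 0.0526 CPM. Of the same leukocyte and fibroblast lists, CD68 was at 36.3 to 45.3 CPM and ACTA2 at 42.3 to 65.5 CPM, and the cholangiocyte genes SOX9 and EPCAM, which hepatoma lines also express, were at 262 to 489 CPM. The other cholangiocyte gene, KRT7, reached at most 0.238 CPM, and the fibroblast genes COL1A1 and COL3A1 at most 1.94 and 0.291 CPM. The endothelial genes PECAM1, VWF and CDH5 summed to 2.43 to 4.21 CPM. CPM values below are scaled by TMM, a normalization that sets the bulk of genes equal between libraries. In such bulk RNA, fewer cells expressing a gene and less RNA of it per cell cannot be told apart.

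Amino acids cross the plasma membrane through carriers with overlapping substrates. SLC7A5 (LAT1) is the light chain that moves leucine and other large neutral amino acids in exchange for glutamine, and it reaches the cell surface bound to the heavy chain SLC3A2 (CD98). SLC38A2 (SNAT2) is a sodium-driven, system A carrier that concentrates glutamine and alanine inside the cell, and its mRNA is known to rise when amino acids run short and the transcription factor ATF4 is made. Leucine and arginine inside the cell are read by the mTORC1 pathway at the lysosome, on which insulin signaling also converges.

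The promoters of 8 of the 10 genes were found in the RefSeq promoter table (GRCh38.p14), with SLC38A3 and SLC7A2 not among them. Shown are the 250 bases before the start site for the 3 genes that changed at 240 min and had a single start site in that table. They include the gene that rose most, SLC7A5, and the one that fell most, SLC38A2. All are on the minus strand of GRCh38.p14 and are written 5′ to 3′ in the direction of the gene. Capitals mark the E-box letters CACGTG.
SLC7A5 (chr16:87869508-87869757): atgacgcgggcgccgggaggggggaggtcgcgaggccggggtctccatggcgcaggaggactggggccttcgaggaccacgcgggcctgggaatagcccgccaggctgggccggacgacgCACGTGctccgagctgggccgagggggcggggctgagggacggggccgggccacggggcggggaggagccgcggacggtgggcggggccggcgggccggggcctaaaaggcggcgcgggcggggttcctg
SLC38A2 (chr12:46372774-46373023): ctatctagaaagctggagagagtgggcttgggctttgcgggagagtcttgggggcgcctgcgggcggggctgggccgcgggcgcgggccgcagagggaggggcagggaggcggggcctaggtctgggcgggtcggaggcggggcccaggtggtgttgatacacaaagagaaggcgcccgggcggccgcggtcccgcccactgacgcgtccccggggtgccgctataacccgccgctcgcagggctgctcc
SLC7A1 (chr13:29595689-29595938): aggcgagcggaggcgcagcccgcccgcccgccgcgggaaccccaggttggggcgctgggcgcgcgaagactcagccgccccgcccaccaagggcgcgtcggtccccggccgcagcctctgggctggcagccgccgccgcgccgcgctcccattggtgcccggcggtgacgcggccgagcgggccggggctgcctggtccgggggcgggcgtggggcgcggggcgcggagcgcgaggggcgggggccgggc

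Each 300-base window (250 bases before to 50 after the start) matched the hg19 genome exactly once, and its start lay 13, 89 and 0 bases from the 5′ end of SLC7A5, SLC38A2 and SLC7A1 in the deposited abundance files. The windows of SLC7A5 and SLC7A1 were 80.3% and 82.0% G or C, and that of SLC38A2 was 72.0%. The 4 motifs searched, on both strands, were TGATGNAA, the C/EBP-ATF response element bound by ATF4, CACGTG, the E-box, GTAAACA, the forkhead motif of the FOXO factors, and TCACNCCAC, the sterol response element. None of the 4 overlapped another in these windows. The SLC7A5 window held CACGTG starting 130 bases before the start site. The SLC7A1 window held TGATGNAA starting at base 8 after it. The SLC38A2 window held none of these letters.

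Over all 8 genes in the promoter table, some with up to 3 start sites, TGATGNAA was found in 5 (SLC1A4, SLC1A5, SLC38A1, SLC3A2 and SLC7A1), against 4.46% of the 27305 genes in the table. In SLC1A5, SLC38A1, SLC3A2 and SLC1A4 the match was not in the window nearest to the 5′ end of the gene in the deposited files, lying 3771, 2909, 25687 and 954 bases from it by start site. CACGTG was in 3 of 8 (SLC7A5, SLC1A5 and SLC43A1, against 8.77% of genes), GTAAACA in 2 of 8 (SLC1A5 and SLC43A1, against 4.19%) and TCACNCCAC in 1 of 8 (SLC1A4, against 1.39%). The CACGTG of SLC1A5 was also outside the nearest window, with its start site 1292 bases from the 5′ end. The same held for the GTAAACA of SLC1A5 and SLC43A1, at 3771 and 810 bases. Genes with several windows had more chances to hold a motif. A match is a run of letters and was not tested as a binding site.

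Before insulin, SLC38A2 was by far the most abundant of the 10 transcripts. Levels between genes were compared in TPM, which divides by transcript length. SLC38A2 stood at 925 ± 13.5 TPM (SD, n = 2) at 0 min, and the next, the glutamine exchanger SLC1A5, at 153 ± 5.56 TPM. SLC38A2 alone made up 52.3% and 53.3% of the summed TPM of the 10 genes in the 2 libraries. Below SLC1A5 came SLC7A5 (125 ± 6.94 TPM), the liver glutamine and histidine carrier SLC38A3 (115 ± 0.508) and the heavy chain SLC3A2 (91.0 ± 6.14). A close group of SLC7A2 (83.0 ± 2.67), SLC43A1 (81.1 ± 0.605) and SLC38A1 (78.5 ± 2.90) followed, and SLC1A4 (55.0 ± 3.39) and SLC7A1 (44.9 ± 2.44) were lowest. The libraries of SLC7A2 and SLC43A1 overlapped, and no other neighbors in this order did so at 0 min, although SLC43A1 and SLC38A1 came close (80.7 against 80.6 TPM). TPM of a gene depends on which of its transcripts the authors' software assembled, so an order between genes of similar level is loose.

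**Figure D1:**
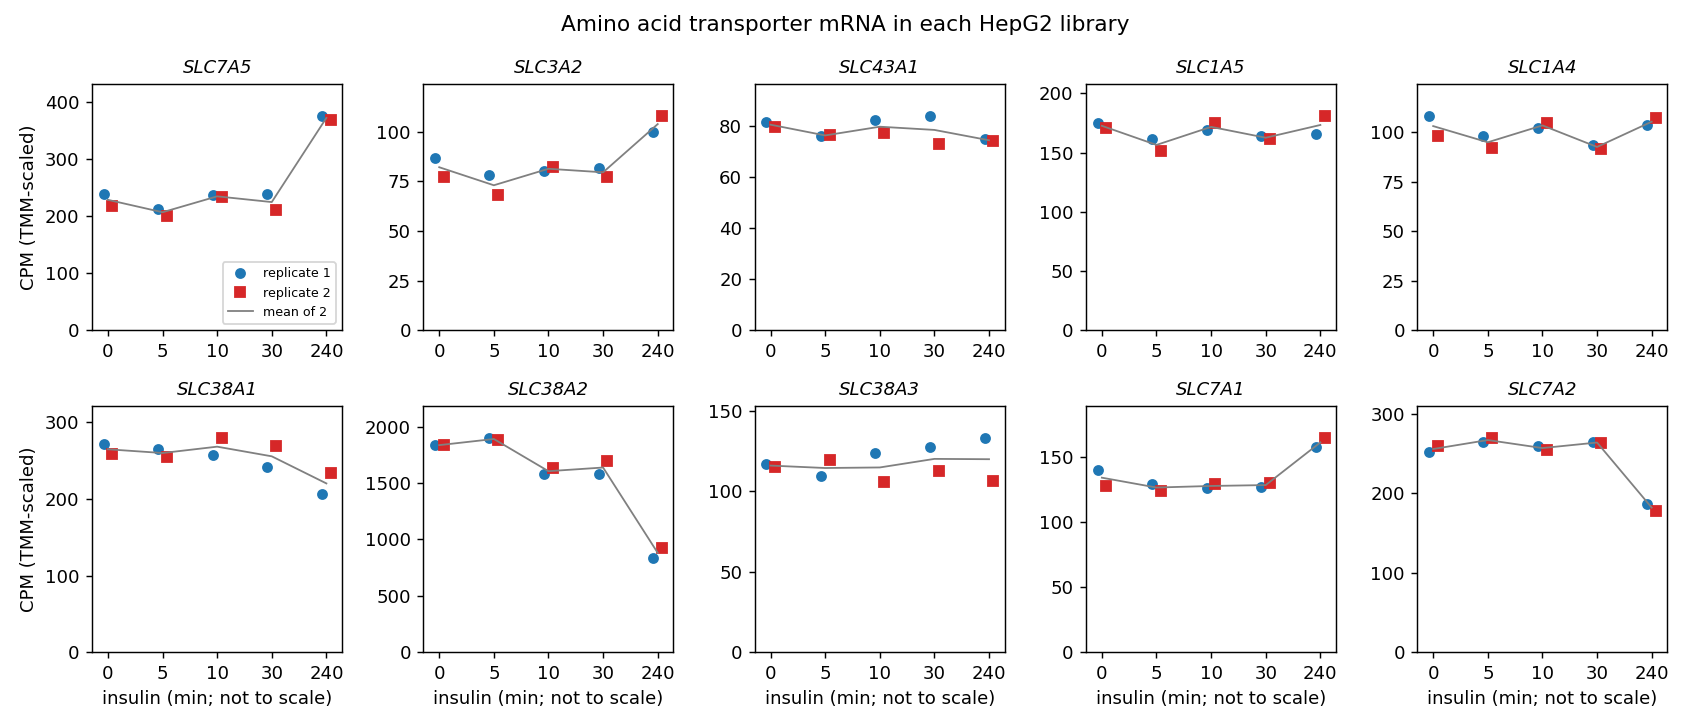
TMM-scaled CPM (vertical axes, each starting at 0) of the 10 amino acid transporter genes in each library at 0, 5, 10, 30 and 240 min of insulin (horizontal axes, equally spaced and not to scale). Circles and squares are replicates 1 and 2 and the line joins the means of 2; SLC7A5, SLC3A2 and SLC7A1 lie highest at 240 min, and SLC38A2, SLC7A2 and SLC38A1 lowest.

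During the first 30 min none of the 10 genes passed the test. At 5 min, 0 of 10 were called by edgeR (quasi-likelihood test, Benjamini-Hochberg adjustment over all 13852 genes), as were 0% of all genes. Of the 10, 3 had an unadjusted p under 0.05 (all genes, 1976 of 13852), and DESeq2 also called 0 of 10. At 10 min the count was again 0 of 10, with 1 at unadjusted p under 0.05 (all genes, 710 of 13852) and 0 by DESeq2. Of all genes, 0.137% were called. At 30 min it was 0 of 10, with 2 at unadjusted p under 0.05 (all genes, 1125 of 13852) and 0 by DESeq2, beside 0.332% of all genes called. The log2 fold changes of the 10 against 0 min ranged from -0.16 to 0.06 after 5 min, from -0.19 to 0.04 after 10 min and from -0.17 to 0.05 after 30 min.

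SLC38A2 was the gene furthest from 0 at 10 and 30 min. Its CPM was 1834 and 1840 before insulin, 1901 and 1881 after 5 min, 1580 and 1631 after 10 min and 1584 and 1692 after 30 min. Both libraries at 10 and at 30 min lay below both at 0 min. In either direction, 1 of the 10 genes at 10 min and 4 of 10 at 30 min did not overlap 0 min, beside 37.2% and 38.3% of all genes. The log2 fold change was -0.19 at 10 min (SE 0.056, edgeR quasi-likelihood unadjusted p = 0.00266, adjusted p = 0.437) and -0.17 at 30 min (SE 0.056, unadjusted p = 0.00839, adjusted p = 0.404). With no filter on low counts the adjusted p at 10 min was 0.0210, so this value depends on that filter.

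The other genes with an unadjusted p under 0.05 were all lower than at 0 min. At 5 min SLC7A5 was at -0.14 (unadjusted p = 0.0268), SLC3A2 at -0.16 (unadjusted p = 0.0289) and SLC1A5 at -0.14 (unadjusted p = 0.0140) on the log2 scale, with edgeR adjusted p-values of 0.303, 0.306 and 0.274. At 30 min SLC1A4 was at -0.15 (edgeR unadjusted p = 0.0129, adjusted p = 0.450). At 10 min SLC7A5, SLC3A2 and SLC1A5 were back within 0.04 of their 0 min levels on that scale.

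At 240 min 6 of the 10 transporters had changed against 0 min, 3 upward and 3 downward. The 2 chains of the leucine exchanger, SLC7A5 and SLC3A2, and the cationic carrier SLC7A1 rose by 1.63, 1.27 and 1.20 fold. The system A carriers SLC38A2 and SLC38A1 and the cationic carrier SLC7A2 fell to 0.480, 0.831 and 0.712 of their 0 min levels. SLC1A5, SLC1A4, SLC38A3 and SLC43A1 did not pass the test. The share called, 6 of 10, stands beside 41.0% of all genes tested, with 20.6% of all genes rising and 20.4% falling, so change at 240 min was common and the count alone sets these genes little apart. The median absolute log2 fold change was 0.27 over the 10 genes and 0.20 over all genes. Of the 10, 7 had libraries at 240 min that did not overlap those at 0 min, as did 69.7% of all genes. These are adjusted p-values under 0.05 in edgeR's quasi-likelihood test. When libraries were instead scaled by their ERCC spike-in RNA, 3 of the 6 kept the call, 1 rise (SLC7A5) and 2 falls (SLC38A2 and SLC7A2), with the median of all genes shifted to -0.12.

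**Figure D2:**
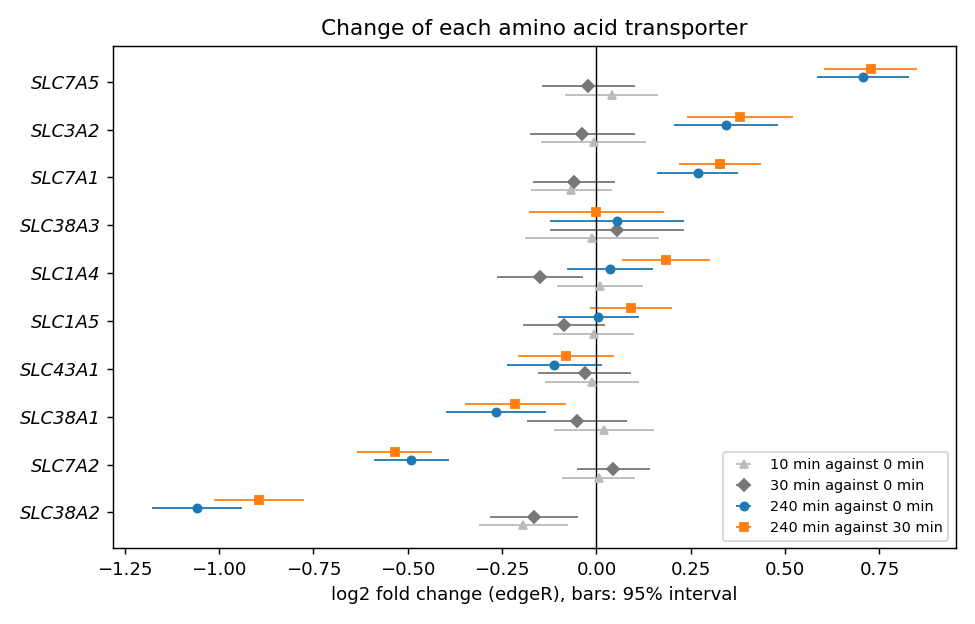
log2 fold change (horizontal axis) with its 95% interval from edgeR's quasi-likelihood fit for each of the 10 genes, at 10, 30 and 240 min against 0 min and at 240 min against 30 min. SLC38A2 lies lowest at -1.06 and SLC7A5 highest at 0.71 for 240 min against 0 min, whereas the intervals at 10 and 30 min lie near 0.

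SLC7A5, the leucine exchanger light chain (hg19 chr16:87863629-87903100, minus strand), rose late. Its CPM was 239 and 218 before insulin, 213 and 201 after 5 min, 236 and 233 after 10 min, 239 and 211 after 30 min and 376 and 368 after 240 min. The 8 libraries up to 30 min lay between 201 and 239 CPM, all below both 240 min libraries. The mean went from 228 ± 14.7 to 372 ± 5.25 CPM (SD, n = 2), a log2 fold change of 0.71 (SE 0.058, edgeR quasi-likelihood adjusted p = 2.46e-08). Its calls held under all 12 other settings tried. Reads could be shared with the near-identical copies SLC7A5P1, at 0 or 1 read per library, and SLC7A5P2, at 20 to 63 reads, beside 4194 to 9712 on SLC7A5. In TPM, SLC7A5P1 was at 2.27 and 2.34 at 0 min and 2.80 and 2.95 at 240 min. SLC7A5P2 was at 3.46 and 3.70, then 5.12 and 5.63, and SLC7A5 at 130 and 120, then 209 and 210. How many reads were shared was not tested. The microRNA gene MIR6775 lies within SLC7A5 on the same strand.

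SLC3A2, the heavy chain shared by LAT1 and other light chains (hg19 chr11:62623484-62656355, plus strand), rose less. It was at 86.9 and 77.5 CPM before insulin, 78.1 and 68.1 after 5 min, 80.4 and 82.4 after 10 min, 81.8 and 77.4 after 30 min, and 99.7 and 108 at 240 min. Both 240 min libraries were above all 8 earlier ones. The log2 fold change at 240 min was 0.34 (SE 0.066, edgeR quasi-likelihood adjusted p = 0.000359). With ERCC scaling it was 0.22 with an adjusted p of 0.531.

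The light chain thus moved further than the heavy chain. The ratio of SLC7A5 to SLC3A2 in TPM was 1.36 and 1.39 in the 0 min libraries, between 1.31 and 1.46 in the 8 libraries up to 30 min, and 1.92 and 1.63 at 240 min. All earlier libraries lay below both at 240 min, while the 2 replicates at 240 min differed by more than the 8 earlier libraries did among themselves. SLC43A1 (LAT3; hg19 chr11:57252004-57283192, minus strand), a leucine carrier that works without SLC3A2, did not follow. It was at 81.6 and 79.7 CPM at 0 min and 74.9 and 74.2 at 240 min, a log2 fold change of -0.11 (95% interval -0.24 to 0.01, edgeR quasi-likelihood adjusted p = 0.146). The 240 min libraries were below those at 0 min but within the range of the other times.

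The neutral amino acid exchangers did not pass the test. SLC1A5 (ASCT2; hg19 chr19:47278140-47291842, minus strand), which takes up glutamine in exchange for other neutral amino acids, was at 175 and 171 CPM at 0 min and 166 and 181 at 240 min. Its log2 fold change was 0.0052, with a 95% interval from -0.10 to 0.11 (edgeR quasi-likelihood adjusted p = 0.946). SLC1A4 (ASCT1; hg19 chr2:65215579-65251000, plus strand), which exchanges alanine, serine and cysteine, was at 108 and 98.0 CPM at 0 min and 104 and 107 at 240 min, with a log2 fold change of 0.04 (95% interval -0.08 to 0.15, edgeR quasi-likelihood adjusted p = 0.640). In both genes the groups overlapped, and the sign turned under ERCC scaling and when 1 library was left out. The ratio of SLC1A5 to SLC1A4 in TPM was 2.59 and 2.98 at 0 min and 2.58 and 2.72 at 240 min, and did not separate the times.

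SLC38A2, the system A carrier SNAT2 (hg19 chr12:46751971-46766645, minus strand), fell most of the 10. From the values up to 30 min given above, none under 1580 CPM, it was at 834 and 929 CPM at 240 min, so that both 240 min libraries were far below all 8 others. The mean went from 1837 ± 4.39 to 881 ± 66.8 CPM (SD, n = 2). The log2 fold change was -1.06 (SE 0.057, edgeR quasi-likelihood adjusted p = 8.19e-11). By p it ranked 21 of the 13852 genes, and by the size of the fold change 325. The call held under all 12 other settings, with log2 fold changes from -1.18 to -1.02, and with each library left out in turn.

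Its neighbor on the chromosome, SLC38A1 (SNAT1, also system A; hg19 chr12:46576840-46663208, minus strand, 88.8 kb away), fell less. It was at 271 and 258 CPM before insulin, 265 and 255 after 5 min, 257 and 280 after 10 min, 242 and 269 after 30 min, and 206 and 234 after 240 min. Both 240 min libraries were below the other 8, replicate 2 only by a small margin from the lower 30 min library. The log2 fold change was -0.27 (SE 0.064, edgeR quasi-likelihood adjusted p = 0.00242). This call was lost without replicate 1 of 240 min (adjusted p = 0.0642), with ERCC scaling (0.210) and with limma on TPM (0.109 to 0.174).

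The ratio of SLC38A2 to SLC38A1 in TPM was 11.4 and 12.2 at 0 min, between 9.90 and 12.8 in all libraries up to 30 min, and 6.88 and 6.64 at 240 min, well apart from the rest. SLC38A3 (SNAT3; hg19 chr3:50242679-50258411, plus strand), the system N carrier by which hepatocytes move glutamine, histidine and asparagine, was at 117 and 115 CPM at 0 min and 133 and 107 at 240 min. Its groups overlapped, with a log2 fold change of 0.05 (95% interval -0.12 to 0.23, edgeR quasi-likelihood adjusted p = 0.647). Its 2 replicates at 240 min lay further apart, for their level, than those of any other of the 10 genes at that time, and the sign turned without replicate 1 of 240 min.

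The cationic carriers moved in opposite directions. SLC7A1 (CAT1; hg19 chr13:30083551-30169825, minus strand), the widely expressed carrier of arginine, lysine and ornithine, was at 140 and 128 CPM before insulin, 129 and 124 after 5 min, 126 and 130 after 10 min, 127 and 130 after 30 min, and 158 and 165 after 240 min. Both 240 min libraries were above all others, with a log2 fold change of 0.27 (SE 0.051, edgeR quasi-likelihood adjusted p = 0.000348). With ERCC scaling the log2 fold change was 0.15 and the adjusted p 0.704.

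SLC7A2 (CAT2; chromosome 8), whose liver form is a low-affinity, high-capacity arginine carrier, was at 251 and 260 CPM before insulin, 264 and 270 after 5 min, 259 and 254 after 10 min, 265 and 263 after 30 min, and 187 and 177 after 240 min. Both 240 min libraries were below the other 8, which spanned only 251 to 270 CPM. The log2 fold change was -0.49 (SE 0.047, edgeR quasi-likelihood adjusted p = 1.40e-07), and the call held under all 12 other settings. The ratio of SLC7A1 to SLC7A2 in TPM was 0.575 and 0.508 at 0 min and 0.475 to 0.575 in all 8 libraries up to 30 min. At 240 min it was 0.872 and 0.963, so that the 2 transcripts were nearly level.

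**Figure D3:**
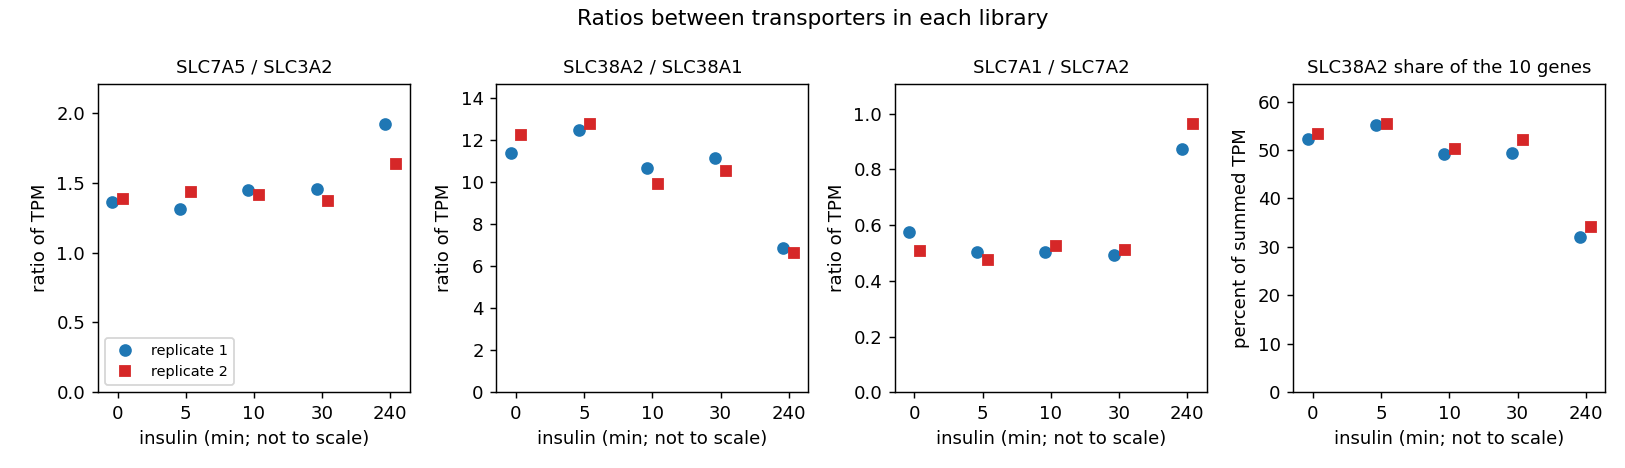
Ratios of TPM between related transporters, and the share of SLC38A2 in the summed TPM of the 10 genes in percent (vertical axes, from 0), in each library against time of insulin in min (not to scale). Circles and squares are replicates 1 and 2; in all 4 panels the 240 min libraries lie apart from the 8 earlier ones, above them for SLC7A5 to SLC3A2 and SLC7A1 to SLC7A2 and below them for the other 2.

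The changes reordered the transporter transcripts. At 240 min SLC38A2 was still first, at 456 ± 40.8 TPM (SD, n = 2), but its share of the 10 genes' summed TPM had gone from between 49.2% and 55.4% in the 8 earlier libraries to 31.9% and 34.1%. SLC7A5, the third at 0 min, was the second at 210 ± 0.632 TPM, above SLC1A5 at 154 ± 11.7, and the libraries of these genes did not overlap. SLC38A3 (122 ± 17.3) and SLC3A2 (119 ± 14.1) overlapped each other. SLC43A1 (78.0 ± 0.397) and SLC38A1 (67.6 ± 7.72) came next. SLC7A2, the sixth at 0 min, was now the eighth at 60.7 ± 1.51 TPM, without overlap with SLC38A1 above it or SLC1A4 (57.8 ± 2.22) below it. SLC1A4 and SLC7A1 (55.7 ± 2.54) overlapped. The summed TPM of all 10 genes was 1751 and 1753 at 0 min and 1338 and 1423 at 240 min. Without SLC38A2 it was 836 and 818 at 0 min and 910 and 938 at 240 min. The sum of the others was thus higher at 240 min, although SLC7A2, SLC38A1 and SLC43A1 among them were lower in mean TPM.

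Against the 30 min libraries, which were also given insulin, 7 of the 10 genes were called at 240 min, 4 upward and 3 downward. Of all genes, 38.2% were called (19.8% up and 18.4% down). This comparison shares the 240 min libraries with the one above. SLC7A5 was up by 0.73 on the log2 scale (edgeR quasi-likelihood adjusted p = 1.96e-08), SLC3A2 by 0.38 (adjusted p = 0.000157) and SLC7A1 by 0.33 (adjusted p = 5.22e-05). SLC38A2 stood at -0.89 (edgeR adjusted p = 8.05e-10), SLC7A2 at -0.54 (adjusted p = 5.36e-08) and SLC38A1 at -0.22 (adjusted p = 0.0118), the last with overlapping libraries in TPM. SLC1A4 was the added gene, with 93.7 and 91.7 CPM at 30 min and 104 and 107 at 240 min, a log2 fold change of 0.18 (edgeR adjusted p = 0.0122). It lost its call without replicate 2 of 30 min (adjusted p = 0.0653) and without replicate 2 of 240 min (adjusted p = 0.0740). SLC38A1 lost its call without replicate 2 of 30 min (adjusted p = 0.155) and without replicate 1 of 240 min (adjusted p = 0.200). Not called were SLC1A5 (0.09, edgeR adjusted p = 0.183), SLC43A1 (-0.08, adjusted p = 0.322) and SLC38A3 (-0.0004, adjusted p = 0.998). With ERCC scaling 2 calls remained, SLC7A5 and SLC38A2.

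Among other amino acid carriers of the plasma membrane, those that changed fell. Of a list of 20 further genes, 13 were expressed enough to be tested at 240 min against 0 min, of which 5 fell, 0 rose and 8 were not called. The share called, 38.5%, was near the 41.0% of all genes. Their median log2 fold change was -0.07, beside -0.0026 for all genes. SLC1A2, a high-affinity glutamate carrier, fell from 101 and 112 CPM to 38.9 and 28.4, a log2 fold change of -1.65 (SE 0.12, edgeR quasi-likelihood adjusted p = 3.90e-09) and thus larger than that of any of the 10. SLC38A4, a further system A carrier found in liver, fell from 33.4 and 38.3 to 23.7 and 21.0 CPM (log2 fold change -0.69, edgeR adjusted p = 4.41e-06). SLC16A10, a carrier of aromatic amino acids, fell from 18.3 and 18.4 to 14.2 and 13.7 CPM (-0.39, edgeR adjusted p = 0.0108). All 3 system A genes, SLC38A1, SLC38A2 and SLC38A4, therefore fell at 240 min. Of the 13, only SLC7A6 was higher at an unadjusted edgeR p under 0.05 (0.0492). DESeq2 called 0 rises and 4 falls, and 1 rise and 4 falls were called with upper-quartile normalization and without replicate 2 of 240 min.

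Genes that carry amino acids out of the lysosome or report them to mTORC1 included both rises and falls. Of 37 names listed, 32 were tested, and 3 rose, 12 fell and 17 were not called, with a median log2 fold change of -0.10. The share called was 46.9%, beside 41.0% of all genes, with 9.38% rising and 37.5% falling, beside 20.6% and 20.4%. TSC1, part of the complex that holds the mTORC1 activator RHEB inactive, fell from 65.0 ± 4.17 to 39.3 ± 0.313 CPM (SD, n = 2; log2 fold change -0.72, edgeR adjusted p = 3.43e-08), and RHEB itself rose from 31.0 ± 1.49 to 36.1 ± 2.17 CPM (0.23, adjusted p = 0.0378). The folliculin partners FNIP1 and FNIP2 moved in opposite directions, FNIP1 up from 60.2 ± 3.58 to 82.6 ± 3.46 CPM (0.45, adjusted p = 3.58e-06) and FNIP2 down from 72.0 ± 1.49 to 46.8 ± 3.67 CPM (-0.61, adjusted p = 3.51e-06). C7orf60 (SAMTOR), the sensor of S-adenosylmethionine, fell with a log2 fold change of -0.61 (edgeR adjusted p = 7.99e-05). MTOR (-0.27) and RPTOR (-0.17), the kinase and its scaffold, were also among those that fell. The falling members include both inhibitors and core parts of the pathway.

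The amino acid response genes also included both rises and falls. The list holds genes that ATF4 and its partners switch on when amino acids run short, ATF4 itself, and the upstream genes EIF2AK4, EIF2AK3 and EIF2S1. Of 28 listed, 27 were tested, and 7 rose, 2 fell and 18 were not called, with a median log2 fold change of 0.05. The share called was 33.3%, beside 41.0% of all genes, with 25.9% rising and 7.41% falling, beside 20.6% and 20.4%. The largest rises were in STC2, a secreted glycoprotein, from 24.9 and 22.9 to 50.8 and 51.4 CPM (log2 fold change 1.10, edgeR adjusted p = 1.32e-09), ATF3, a stress-induced transcription factor (0.97, adjusted p = 1.59e-06), and DDIT4, an inhibitor of mTORC1 (0.91, adjusted p = 2.51e-07). SESN2, the leucine sensor, which is in both this list and the previous one, fell (-0.51, edgeR adjusted p = 0.000191), as did EIF2AK4, the kinase that senses uncharged tRNA (-0.32, adjusted p = 3.48e-05). ATF4 itself was at -0.02 (edgeR adjusted p = 0.772) and its target ASNS, asparagine synthetase, at -0.07 (adjusted p = 0.612), and neither passed the test. The rises not yet named were TRIB3 (0.64, edgeR adjusted p = 4.94e-06), CEBPG (0.47, adjusted p = 1.20e-06), EIF2S1 (0.35, adjusted p = 6.84e-05) and ATF5 (0.34, adjusted p = 0.00181). The amount of ATF4 protein was not measured here. SLC7A5, SLC3A2 and SLC38A2 are known targets of ATF4, and at 240 min the first 2 rose and the last fell.

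**Figure D4:**
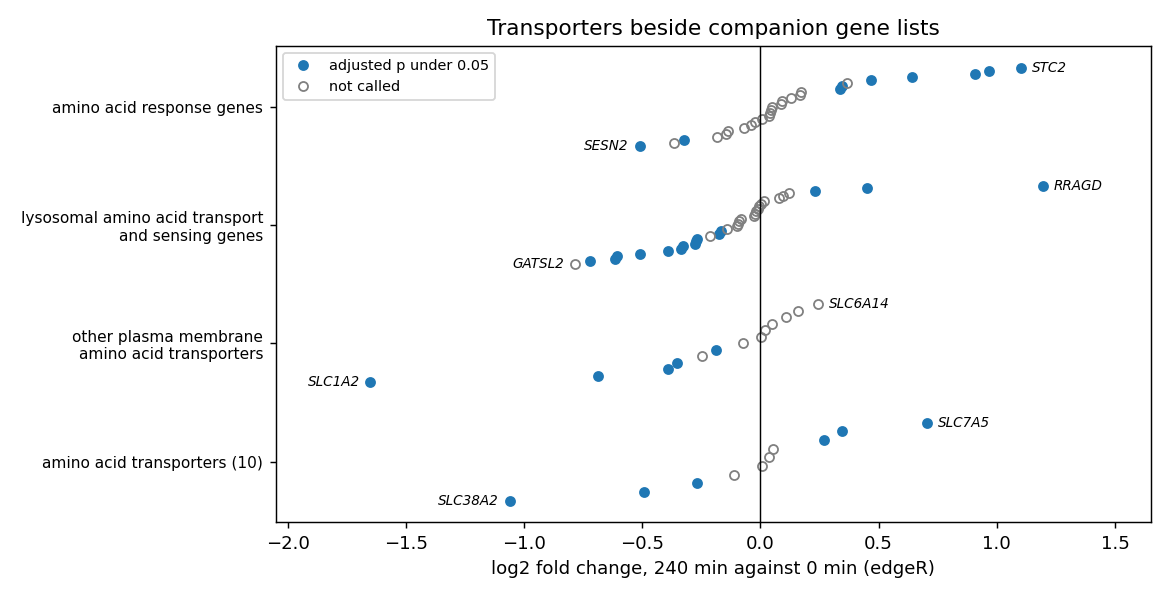
log2 fold change at 240 min against 0 min (horizontal axis, edgeR) for the 10 transporters and 3 companion gene lists, 1 point per gene, filled where the adjusted p is under 0.05, with the lowest and highest gene of each list named. SLC38A2 and SLC7A5 bound the 10 transporters, SLC1A2 lies lowest of all at -1.65, and RRAGD lies highest at 1.20 from a low mean of 2.02 CPM.

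The companion counts depended on the scaling, with 2, 5 and 4 genes of the 3 lists called under ERCC scaling in place of 5, 15 and 9. Of the other plasma membrane carriers, 2 were called by limma on TPM and 3 without replicate 2 of 0 min, all of them falls.

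IR ChIP-seq gave 1971 peaks, called by the authors on 1 library without a replicate, with scores from 13 to 14106 (median 79.0). None of the 10 transporter genes had a peak in the gene body or within 5 kb of it, beside 15.7% of the 13852 genes tested. The count was also 0 of 10 within 1 kb and within 20 kb. The nearest peak lay 61.9 kb from SLC1A5, at the promoter of AP2S1 (score 3749, rank 27), and 71.0 kb from SLC38A3, at the promoter of IFRD2 (score 6387, rank 11). For SLC7A5 it lay 63.9 kb away, at the promoter of KLHDC4, with a score of 16 (rank 1913). For SLC38A2 it lay 119.6 kb away in an intergenic stretch, with a score of 38 (rank 1519), and it was also the nearest to SLC38A1, at 223.1 kb. SLC3A2 was furthest from a peak, at 375.2 kb. With 10 genes and 1 library no test was made, and a peak under the caller's threshold would not be listed.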

How the data were processed

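HepG2 RNA was measured at 5 times of insulin with 2 libraries each, and IR ChIP-seq in 1 library. Per the labels and the study's methods, the authors trimmed 50-base single-end reads with Trim Galore 0.6.4, aligned them to hg19 with STAR 2.6.1d, marked duplicates (removal is not stated) and deposited raw counts per gene from featureCounts 1.6.4, set to the reverse strand, without normalization. The authors also deposited StringTie abundances in TPM, and a table of IR peaks with a score for each, called with MACS2 2.2.7.1 after BWA 0.7.17-r1188 alignment and annotated with HOMER.

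The counts were tested here with edgeR 4.0.16 (R 4.3.3) in 1 model of the 10 libraries, with TMM, filterByExpr by time, the quasi-likelihood test and no replicate block, at a Benjamini-Hochberg adjusted p under 0.05 over 13852 genes. Each SE came from the F statistic of its fold change, and 95% intervals use the fit's degrees of freedom. The 92 ERCC rows, 1.59% to 2.36% of all counts, entered neither library sizes nor tests, and columns of no sample numbered 0. With 2 libraries against 2, an exact permutation test of a single value cannot go below p = 0.333, so none was used. Replicates differed by more than sampling noise. Intervals and p-values cover these libraries only.

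The 10 genes, the companion lists and the motifs were chosen with earlier results of these data known. All 10 genes are named in each comparison. Of each companion list, the 3 largest called rises and falls with a mean of at least 5 CPM are named. Others (MTOR, RPTOR, ATF4, ASNS, SLC7A6, RRAGD, TRIB3, CEBPG, EIF2S1, ATF5, EIF2AK3) were named after their values were seen. Gene positions are those of the StringTie tables (hg19), 1-based, and promoter sequences are from RefSeq. Alternatives were DESeq2 1.42.0, RLE, upper-quartile and ERCC scaling, no filter, at least 10 counts in every library, a likelihood ratio test, a replicate block, only the times compared, limma 3.58.1 on log2 TPM with a pseudocount of 1 or 0.1 and, with the former, above a mean of 1 TPM, and leaving out each library. On data simulated for 240 min against 0 min (13724 genes, 200 changed), the test made 170 calls, of which 156 were true. It recovered 86% of genes changed by 1 and 70% of those changed by 0.5 on the log2 scale. In the data themselves 41.0% of genes were called, a far larger share than was changed in the simulation, so these rates need not hold for the data. Figures were drawn with matplotlib 3.10.9.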

Additional observations from a re-analysis of the deposited data

How the results depend on the processing

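The calls of SLC7A5, SLC38A2 and SLC7A2 at 240 min against 0 min held under all 12 alternatives and with each library left out. ERCC scaling took the count of the 10 genes called at 240 min against 0 min from 6 to 3, where it shifted the median of all genes to -0.12, and against 30 min from 7 to 2, where that median was 0.01. It took the 3 companion lists from 5, 15 and 9 to 2, 5 and 4. With limma on TPM, the other plasma membrane carriers called were 2 under each of the 3 settings. With no filter on low counts the count at 10 min was 1 rather than 0. The cause of these shifts was not tested. Leaving out 1 library gave 5 to 6 of the 10 genes at 240 min against 0 min, 6 to 7 against 30 min, and 3 to 5 of the other plasma membrane carriers, lowest without replicate 2 of 0 min. The lone library left at a time was assumed to vary like the others. The log2 fold change turned in sign for 3 genes that were not called, which were -0.116 (SLC1A5), -0.0877 (SLC1A4) and -0.0593 (SLC38A3) under ERCC scaling. With libraries left out in turn these ranged from -0.0606 to 0.0678, from -0.0430 to 0.103 and from -0.122 to 0.199. With a replicate block 6 of the 10 genes were called at 240 min against 0 min, 7 against 30 min and 0 at each earlier time, and of the companion lists 5, 15 and 11. Over 10 pairs of times the correlation of same-numbered deviations ran from -0.12 to 0.13, above 0.1 in 2. These values showed no strong pairing by replicate number. They cannot tell whether the libraries were prepared in pairs, since deviations of 2 libraries are mostly noise. With 2 libraries per time, smaller changes than those of SLC7A1 and SLC38A1 may go uncalled.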
